A study of Homo sapiens with 6 samples.

Results

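The genes described here are 10 genes of the Nodal and Activin pathway, chosen by symbol from among the 60499 genes of the deposited tables: the ligands NODAL and GDF3, the co-receptor TDGF1, the receptors ACVR1B and ACVR2B, the transcription factor FOXH1, the secreted inhibitors LEFTY1 and LEFTY2, and the intracellular inhibitors SMAD7 and SKIL. They were followed in H1, an established line of human embryonic stem cells, kept for 4 days in Nutristem medium on wells coated with laminin. The coating was laminin-521 alone (LN-521, 3 wells) or laminin-521 together with laminin-221 (LN-521+LN-221, 3 wells). All wells share the same cell line, medium and culture time, and total RNA of each well was sequenced as a library of its own. The wells are labelled as biological replicates, but nothing says that they came from separate passages, so p-values measure the spread between wells of 1 line, which may be technical.

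Nodal and Activin are secreted ligands of the TGF-beta superfamily. They assemble type II receptors (ACVR2A, ACVR2B) and type I receptors (ACVR1B, ACVR1C), and Nodal also needs a co-receptor of the Cripto family such as TDGF1. The active receptors phosphorylate SMAD2 and SMAD3, which enter the nucleus with SMAD4 and bind DNA with partners such as FOXH1. The targets include the pathway's own ligand NODAL and its inhibitors LEFTY1, LEFTY2, SMAD7 and SKIL. In human embryonic stem cells this signalling is known for sustaining NANOG and the undifferentiated state.

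Library totals ranged from 20606450 to 26836686 estimated counts. Levels are given as CPM (counts scaled to library size) on scaled library sizes, and as the authors' TPM (transcript abundance scaled to the library) where genes are compared with each other, because TPM takes account of transcript length. The 8 markers of undifferentiated cells summed to 8299 to 8382 CPM on LN-521 and 8461 to 8605 CPM on LN-521+LN-221. Markers of other lineages were low. The 5 mesendoderm markers summed to 0.482 to 0.828 CPM on LN-521 and 0.887 to 1.30 CPM on LN-521+LN-221, the 4 endoderm markers to 0.0803 to 0.349 and 0.0845 to 0.433 CPM, and the 4 neuroectoderm markers to 0.827 to 1.13 and 0.819 to 1.44 CPM. The 5 trophoblast or amnion markers summed to 21.95 to 26.4 and 21.7 to 25.6 CPM, most of it KRT7. No marker was at 0 in all libraries. Of the markers of undifferentiated cells, 2 of 8 were lower on LN-521+LN-221 (POU5F1, log2 fold change -0.36, and NANOG, described below) and 1 was higher (LIN28A, 0.23; edgeR adjusted p under 0.05 for each), where 1.14% of all genes tested were lower and 1.4% higher. The part of these markers in the results below was not tested, and in bulk RNA fewer cells of a kind and less RNA per cell cannot be told apart.

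TDGF1, SKIL and GDF3 fell when laminin-221 was added, and the wells of the 2 receptors overlapped between the coatings. All 10 genes passed the filter on low counts. At an adjusted p under 0.05 over all genes tested (edgeR quasi-likelihood test, Benjamini-Hochberg), 3 of the 10 were lower on LN-521+LN-221 and 0 were higher. Among all 17608 genes tested, 2.53% passed in either direction, 1.14% were lower and 1.4% were higher. CPM did not overlap between the coatings for 6 of the 10 genes, each of them lower on LN-521+LN-221, where 19.9% of all genes tested did not overlap. The median log2 fold change was -0.43 over the 10 genes and -0.0011 over all genes tested. These shares describe the list and are not a test of it, since its members were chosen with earlier results of these data known.

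**Figure D1:**
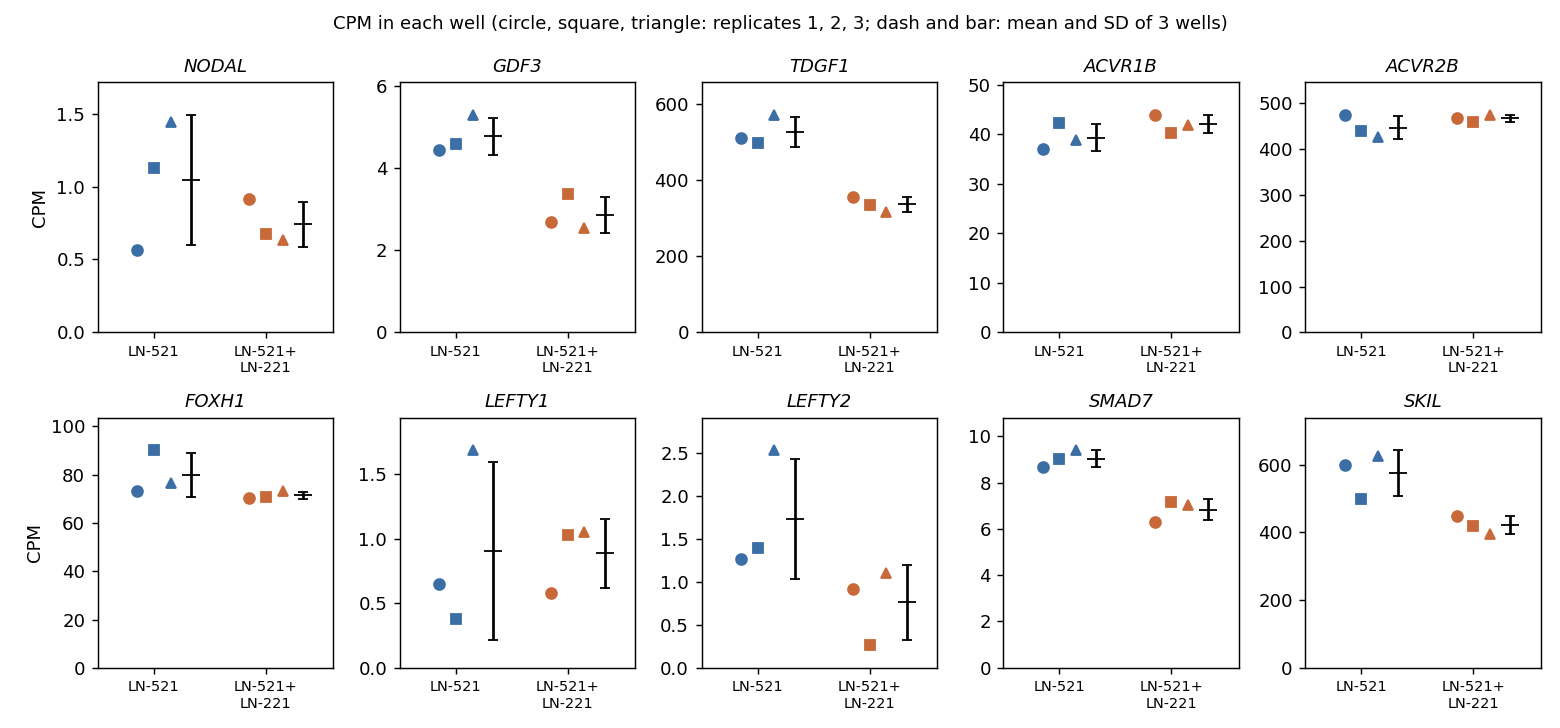
CPM (vertical axis, linear from 0, a scale of its own for each gene) of the 10 genes in the 3 wells on LN-521 (blue) and the 3 wells on LN-521+LN-221 (orange), with the mean and SD beside them. TDGF1, GDF3, SMAD7, SKIL, FOXH1 and LEFTY2 do not overlap between the coatings, FOXH1 by the narrowest margin, while ACVR1B, ACVR2B, NODAL and LEFTY1 overlap.

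Levels were compared between genes by TPM. Mitochondrial, ribosomal RNA, 7SK and 7SL genes took 30.7% to 37.9% of the TPM, most in LN-521 replicate 2, which moves the TPM of every other gene. On LN-521, TDGF1 was highest at 343 ± 25.2 TPM (SD, n = 3), followed by SKIL at 124.7 ± 18.6 TPM. FOXH1 at 37.7 ± 2.77 TPM and ACVR2B at 31.3 ± 3.79 TPM came next, and their wells overlapped. ACVR1B was at 7.74 ± 0.736 TPM. SMAD7 at 3.58 ± 0.386 TPM and GDF3 at 3.54 ± 0.350 TPM could not be ranked, since their wells overlapped. LEFTY2 at 0.727 ± 0.265 TPM, NODAL at 0.550 ± 0.205 TPM and LEFTY1 at 0.490 ± 0.368 TPM overlapped too. The most abundant of these transcripts encoded the co-receptor and an intracellular inhibitor, and the least abundant encoded NODAL and the LEFTY inhibitors. On LN-521+LN-221 the order from the top was again TDGF1 (223 ± 19.9 TPM), SKIL (89.3 ± 5.66 TPM), FOXH1 (35.3 ± 2.47 TPM), ACVR2B (33.01 ± 1.52 TPM) and ACVR1B (8.22 ± 0.581 TPM), with FOXH1 and ACVR2B overlapping again.

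Among the ligands, GDF3 fell and NODAL did not pass the test. GDF3 (ENSG00000184344, chr12:7689782-7695776 of hg38), a ligand related to Vg1 that is typical of undifferentiated stem cells, was at 4.44, 4.59 and 5.30 CPM in the wells on LN-521. On LN-521+LN-221 it was at 2.70, 3.36 and 2.53 CPM. Every well with laminin-221 was below every well without it. The log2 fold change was -0.74 ± 0.17 (SE; edgeR adjusted p = 0.0209), a fall by 40.0%, on 56 to 132 counts per library. The call was lost without LN-521 replicate 3 (-0.66, edgeR adjusted p = 0.130), without LN-521+LN-221 replicate 1 (-0.70, 0.102) and without LN-521+LN-221 replicate 3 (-0.66, 0.145), and with limma on log2(TPM + 1) (-0.51, 0.167). DESeq2 gave an adjusted p of 0.0264 on the genes kept by the filter and 0.0518 on all genes with at least 1 count. The second of these DESeq2 fits was the one run first, and the gene set was changed after its values had been seen.

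NODAL (ENSG00000156574, chr10:70432315-70447951 of hg38), the ligand that names the pathway, was at 0.566, 1.13 and 1.45 CPM on LN-521 and 0.915, 0.673 and 0.634 CPM on LN-521+LN-221. The lowest and the 2 highest of the 6 wells were all on LN-521, so the groups overlapped. With 13 to 36 counts per library, its log2 fold change of -0.51 had a 95% interval from -1.26 to 0.23 (edgeR adjusted p = 0.554). It was -0.80 without LN-521 replicate 1 (edgeR adjusted p = 0.174) and -0.22 without LN-521 replicate 3 (0.894). A fall as large as that of GDF3 and a small rise both lie within the interval from all 6 libraries.

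Promoter windows were read to see whether letters known from this pathway occur beside the genes. The RefSeq promoter table (GRCh38.p14) held 6 of the 10 genes, with 9 start sites: NODAL, GDF3, ACVR1B, ACVR2B, SMAD7 and SKIL. TDGF1, LEFTY1, LEFTY2 and FOXH1 were not matched. The 250 bases before each start site were searched on both strands for CAGAC, the core of the SMAD-binding element, which the other strand reads as GTCTG, and for TGTGNATT, a core of FOXH1 sites, which the other strand reads as AATNCACA. The sequences shown are those of the 2 matched genes that fell, cut where an annotated exon of the gene begins, with motif matches in capitals. GDF3 is read from chr12:7695777-7696025, minus strand, and SKIL from chr3:170357465-170357677, plus strand.
GDF3: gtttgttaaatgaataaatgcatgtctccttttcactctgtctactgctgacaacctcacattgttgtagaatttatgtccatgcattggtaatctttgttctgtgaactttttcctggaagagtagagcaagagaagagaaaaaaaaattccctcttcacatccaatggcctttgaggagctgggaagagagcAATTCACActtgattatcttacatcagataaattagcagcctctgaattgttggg
SKIL: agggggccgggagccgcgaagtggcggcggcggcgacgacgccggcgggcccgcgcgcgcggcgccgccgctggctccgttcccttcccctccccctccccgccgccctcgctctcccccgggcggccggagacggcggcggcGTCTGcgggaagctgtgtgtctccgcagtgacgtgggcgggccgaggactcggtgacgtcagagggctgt
The GDF3 window held TGTGNATT once, on the other strand, at position -56 counted from the start site, and it was the only one of the 9 windows with that motif. Among all 35116 promoter windows of the same length, 2.9% held it. CAGAC occurred in 5 of the 9 windows, among them that of SKIL, on the other strand at position -107, and in 38.0% of all windows. A match describes the letters only, and no binding was measured.

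TDGF1 (ENSG00000241186, chr3:46574534-46582463 of hg38), the co-receptor Cripto, had the smallest relative error of the genes that fell. It was at 511, 497.5 and 571 CPM on LN-521 and at 357, 336 and 317 CPM on LN-521+LN-221. The gap between the groups was wider than the range within either. TDGF1 fell by 36.1%, and its log2 fold change was -0.65 ± 0.06 SE (edgeR adjusted p = 8.23e-06). It passed without any single library, with adjusted p-values of at most 3.93e-04 in those 6 fits. With limma on the authors' values it did not pass at log2(TPM + 1) (-0.62, adjusted p = 0.0581) or log2(TPM + 0.1) (-0.63, 0.135).

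Reads of TDGF1 may be shared with copies and neighbours. The processed pseudogene TDGF1P3 matches the 567-base coding sequence of TDGF1 at 98.8% of its bases in GENCODE 29. TDGF1P3 was itself lower on LN-521+LN-221 (log2 fold change -0.59 ± 0.14 SE, edgeR adjusted p = 0.033), without overlap of the wells. The part of divided TDGF1 reads in that value was not tested. TDGF1 estimated counts were non-whole in 5 libraries, so some reads had been divided. The 7 named TDGF1 pseudogenes together held 1.27% ± 0.0466 of the summed CPM on LN-521 and 1.32% ± 0.211 with laminin-221 added (SD over 3 wells). The sum of TDGF1 and these pseudogenes changed by -0.65 ± 0.06 (SE; edgeR adjusted p = 8.16e-06), close to the value of TDGF1 alone. LRRC2, on the other strand, shares 110 exon bases with TDGF1, or 3.7% of the exon bases of TDGF1 and 2.0% of those of LRRC2. LRRC2 was at 13.1, 11.2 and 11.3 CPM on LN-521 and 8.43, 7.31 and 6.84 CPM on LN-521+LN-221 (log2 fold change -0.66 ± 0.12 SE, edgeR adjusted p = 0.00320). Whether strand was used in counting is not given in the sources used here, so reads in the shared bases cannot be told apart. NODAL on the other strand, and TDGF1, LEFTY1 and LEFTY2 on the same strand, also share exon bases with a gene model that has no symbol.

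Neither receptor passed the test. ACVR1B (ENSG00000135503, chr12:51951667-51997078 of hg38), the type I receptor ALK4, was at 36.9, 42.2 and 38.7 CPM on LN-521 and 43.9, 40.3 and 41.8 CPM on LN-521+LN-221. Its log2 fold change was 0.09, with a 95% interval from -0.057 to 0.25 (edgeR adjusted p = 0.600). ACVR2B (ENSG00000114739, chr3:38453851-38493142 of hg38), a type II receptor, was at 474.7, 439.6 and 426.5 CPM against 468.5, 459 and 474.5 CPM. Its log2 fold change was 0.06, with a 95% interval from -0.047 to 0.18 (edgeR adjusted p = 0.633). For both receptors the wells of the coatings overlapped, and the intervals do not reach the falls estimated for TDGF1 and GDF3. The difference in fold change between genes was not tested.

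FOXH1 (ENSG00000160973), the forkhead factor that brings SMAD complexes to DNA, was at 73.09, 90.1 and 76.6 CPM on LN-521 and 70.5, 70.8 and 73.06 CPM on LN-521+LN-221. The groups touched, at 73.09 against 73.06 CPM, and LN-521 replicate 2 stood above the rest. By TPM they overlapped. The log2 fold change was -0.16 ± 0.07 (SE; edgeR adjusted p = 0.307). It was -0.22 without LN-521 replicate 1 (0.0407) and -0.065 without LN-521 replicate 2 (0.680). KIFC2, on the other strand, shares 791 exon bases with FOXH1, or 31.6% of its exon bases, and had a log2 fold change of 0.02 (edgeR adjusted p = 0.961).

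LEFTY1 and LEFTY2 encode secreted inhibitors that bind Nodal and its co-receptor, and they are direct targets of the pathway. They lie near each other at chr1:225886282-225911382 and chr1:225936598-225941489 of hg38, both on the minus strand. Their coding sequences, of 1101 bases each in GENCODE 29, were identical at 97.2% of positions and differed at 31. The longest identical run was 300 bases, and 15.9% of windows as long as the 150-base reads were identical. Estimated counts of both genes were non-whole in 4 libraries, so reads had been divided between copies.

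LEFTY2 (ENSG00000143768) was at 1.26, 1.39 and 2.53 CPM on LN-521 and 0.915, 0.269 and 1.10 CPM on LN-521+LN-221. Its groups did not overlap, and LN-521 replicate 3 was the highest well. The log2 fold change of -1.18 ± 0.40 (SE) did not pass the test (edgeR adjusted p = 0.167), on 6 to 62.75 estimated counts. It was -0.77 without LN-521+LN-221 replicate 2 (edgeR adjusted p = 0.478). With the replicate number as a block it passed (-1.22, edgeR adjusted p = 0.0159). LEFTY1 (ENSG00000243709) was at 0.653, 0.376 and 1.69 CPM against 0.578, 1.03 and 1.06 CPM, with overlapping groups. Its log2 fold change was -0.013 ± 0.46 (SE; edgeR adjusted p = 0.994), and it changed sign in 4 settings.

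As the split between the copies is uncertain, their sum was tested as well. The summed LEFTY1 and LEFTY2 level was 1.92, 1.77 and 4.21 CPM on LN-521 and 1.49, 1.30 and 2.15 CPM on LN-521+LN-221. The groups overlapped, with LN-521 replicate 3 far above the other 5 wells. The log2 fold change of the sum was -0.67 ± 0.33 (SE; edgeR adjusted p = 0.389), and -0.15 without LN-521 replicate 3 (0.891). LEFTY1 made up 34.1%, 21.3% and 40.0% of the sum on LN-521. With laminin-221 added its share was 38.7%, 79.3% and 49.0%, with LN-521+LN-221 replicate 2 the highest.

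SKIL fell and SMAD7 stayed short of the threshold. SKIL (ENSG00000136603, chr3:170357678-170396835 of hg38) encodes SnoN, a repressor that binds SMAD complexes and is itself induced by the pathway. It was at 599, 498 and 627 CPM on LN-521 and 447, 420.2 and 394 CPM on LN-521+LN-221. All wells with laminin-221 were below all wells without it, LN-521 replicate 2 coming closest. SKIL fell by 26.8%, and its log2 fold change was -0.45 ± 0.08 SE (edgeR adjusted p = 0.00401). The call was lost without LN-521 replicate 1 (-0.42, edgeR adjusted p = 0.118) and with limma on log2(TPM + 1) (-0.47, 0.283).

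SMAD7 (ENSG00000101665, chr18:48919853-48952052 of hg38), which blocks SMAD activation at the receptor, was at 8.67, 9.02 and 9.39 CPM on LN-521 and 6.31, 7.17 and 7.01 CPM on LN-521+LN-221. The wells of each coating lay close together and the groups did not overlap. The log2 fold change was -0.40 ± 0.11 (SE), with a 95% interval from -0.64 to -0.16 and an edgeR adjusted p of 0.0772. It passed without LN-521 replicate 1 (-0.43, edgeR adjusted p = 0.0436).

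**Figure D2:**
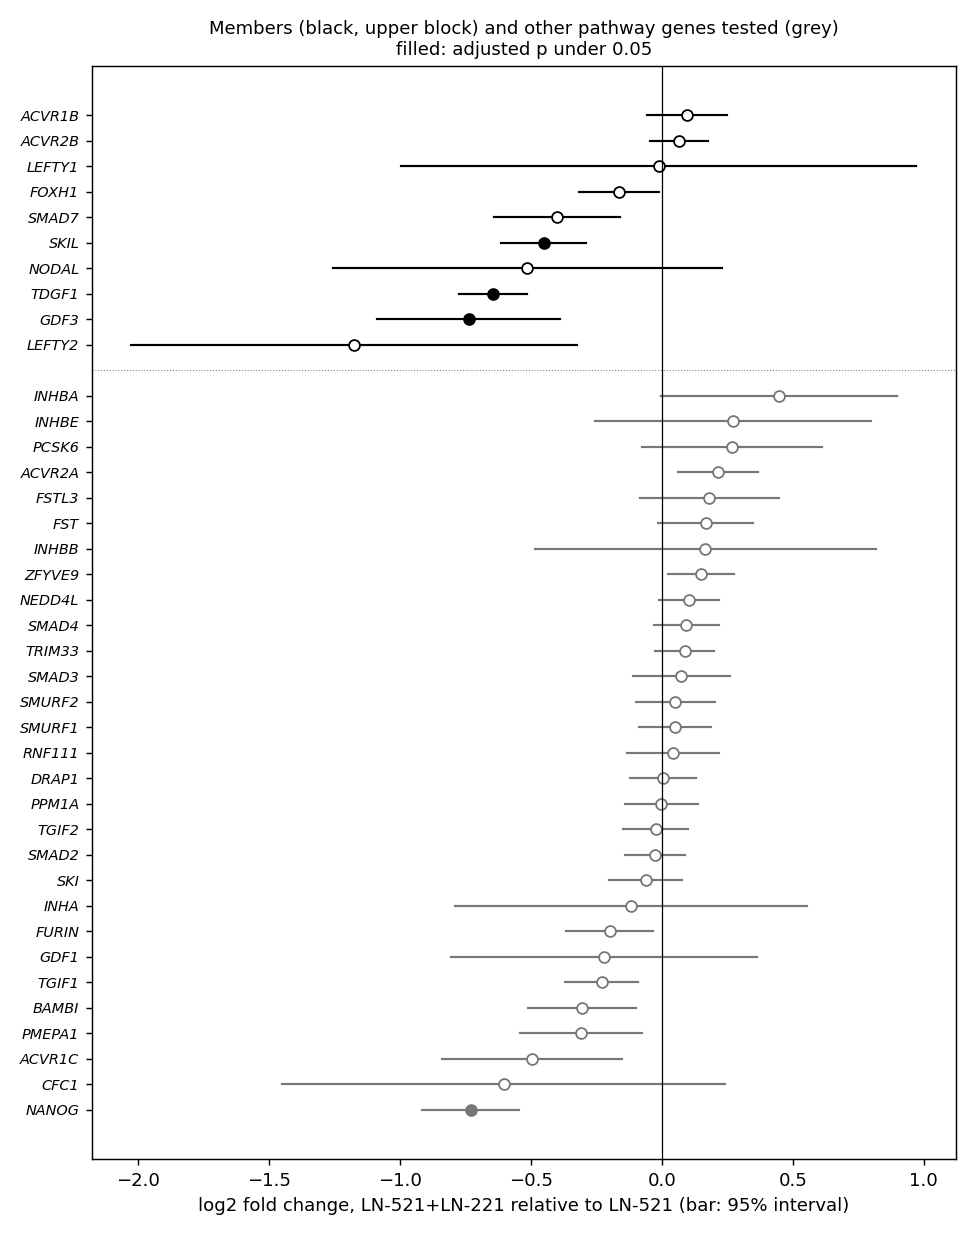
Log2 fold change (horizontal axis, negative where lower with laminin-221) with its 95% interval, for the 10 genes (black, upper block) and the 29 other pathway genes tested (grey). Filled points have an adjusted p under 0.05: TDGF1, GDF3 and SKIL above, and NANOG below.

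The rest of the pathway was read from a list of 37 further genes, of which 29 passed the filter. Of these, 1 was lower at an adjusted p under 0.05 (edgeR) and 0 were higher, a share of 3.45% against 2.53% of all genes tested. An unadjusted p under 0.05 was reached by 8 of the 29 (27.6%), against 14.5% of all genes tested. Their median log2 fold change was 0.04. The gene that fell was NANOG, a pluripotency factor and target of SMAD2 and SMAD3, at 105.5, 97.3 and 118 CPM on LN-521 and 72.8, 63.6 and 57.0 CPM on LN-521+LN-221. The groups did not overlap (log2 fold change -0.73 ± 0.09 SE, edgeR adjusted p = 1.65e-04). NANOG estimated counts were non-whole in 6 libraries, and it has named pseudogenes. With limma on log2(TPM + 1) it did not pass (-0.72, adjusted p = 0.143).

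The genes of the SMAD proteins that carry the signal did not pass. The log2 fold change of SMAD2 was -0.03 ± 0.05 (SE; edgeR adjusted p = 0.882), that of SMAD3 0.07 ± 0.09 (0.765) and that of SMAD4 0.09 ± 0.06 (0.510). On TPM with limma the log2 fold change of SMAD3 was 0.35 with log2(TPM + 1), 0.42 with log2(TPM + 0.1) and 0.34 after rescaling, and it passed in none of these (adjusted p = 0.710, 0.745 and 0.706). SMAD4 passed without LN-521 replicate 1 (0.16, edgeR adjusted p = 0.0433). Of the 4 tested ligand genes outside the 10, 0 passed (edgeR) and 0 reached an unadjusted p under 0.05, where 2.53% and 14.5% of all genes tested did. INHBA, whose product forms Activin A, was at 3.48, 3.91 and 3.33 CPM on LN-521 and 4.72, 6.73 and 3.25 CPM on LN-521+LN-221. The groups overlapped and LN-521+LN-221 replicate 2 was highest (log2 fold change 0.45 ± 0.21 SE, edgeR adjusted p = 0.345). Without that well the value was 0.15 (edgeR adjusted p = 0.882), and without LN-521+LN-221 replicate 3 it was 0.68 (0.119). The type II receptor ACVR2A was at a log2 fold change of 0.21 with an SE of 0.07 (edgeR adjusted p = 0.155), with overlapping wells, and passed without LN-521 replicate 1 (0.28, 0.0127) and with all libraries under the GC correction (0.19, 0.0377). The other receptor of the list, the type I receptor ACVR1C, named here after its values were seen, was at 4.92, 5.68 and 7.18 CPM on LN-521 and 4.33, 3.63 and 4.65 CPM on LN-521+LN-221. Its groups did not overlap, and its log2 fold change of -0.50 ± 0.16 (SE) did not pass (edgeR adjusted p = 0.142). It was -0.61 without LN-521 replicate 1, where it passed (0.0274), and -0.34 without LN-521 replicate 3 (0.512).

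Of the 5 secreted inhibitors in that list, 3 were tested. Of these, 0 passed (edgeR) and 0 reached an unadjusted p under 0.05, where 2.53% and 14.5% of all genes tested did. Counts over so few genes describe the list only. FST, follistatin, which binds Activin, was at a log2 fold change of 0.17 with an SE of 0.09 (edgeR adjusted p = 0.395). CER1, an inhibitor of Nodal made by endoderm, had 1 to 8 counts per library and was not tested. The 9 intracellular inhibitors outside the 10 were all tested. Of these 0 passed (edgeR), where 2.53% of all genes tested did. An unadjusted p under 0.05 was reached by 3 (14.5% of all genes tested), and 5 had CPM that did not overlap (19.9% of all genes tested). The 3 were TGIF1, PMEPA1 and BAMBI, all lower on LN-521+LN-221. Of the 5, NEDD4L was higher, while SKI, TGIF1, PMEPA1 and BAMBI were lower. These genes were named after their values were seen. TGIF1, a SMAD corepressor, had a log2 fold change of -0.23 (edgeR adjusted p = 0.0843). It passed without LN-521 replicate 1 (-0.31, 3.81e-04), without a filter (-0.24, 0.0103), with the replicate block (-0.23, 0.0320), under the GC correction (-0.22, 0.0228) and with DESeq2 on all genes with at least 1 count (-0.23, 0.0385). Among the targets in the list, EOMES, MIXL1, GSC and TBXT had at most 10 counts in any library and were not tested.

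**Figure D3:**
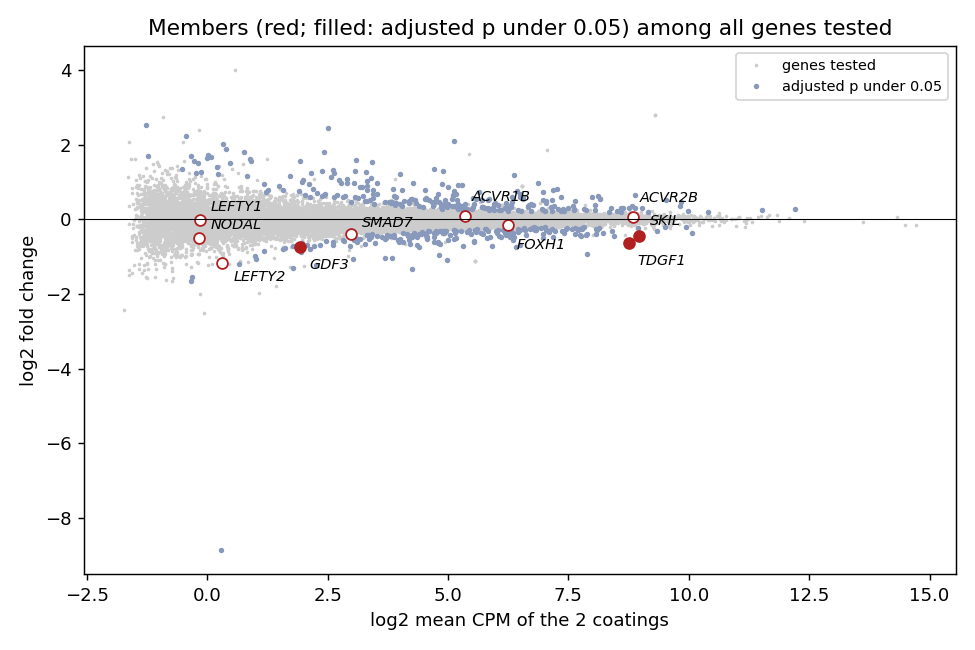
Log2 of the mean CPM of both coatings (horizontal axis) against the log2 fold change (vertical axis) for all 17608 genes tested (grey; blue where the adjusted p was under 0.05), with the 10 genes in red, filled where they passed. TDGF1 and SKIL passed at high expression and GDF3 at low expression, while NODAL, LEFTY1 and LEFTY2 lie where the spread of all genes is wide.

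The wells were not alike within a coating. LN-521 replicate 3 held the highest CPM of 7 of the 10 genes: NODAL, GDF3, TDGF1, LEFTY1, LEFTY2, SMAD7 and SKIL. The same well was highest for 14.6% of all genes tested. Among the 200 genes called lower on LN-521+LN-221 it was highest for 54.5%, against 27.5% and 18% for LN-521 replicates 1 and 2. Of those 200, which include TDGF1, SKIL and GDF3, 0 were highest on LN-521+LN-221, so the 2 shares are not on the same base. Of the 29 other pathway genes tested, 5 were highest in LN-521 replicate 3. Without this library TDGF1 changed by -0.58 (edgeR adjusted p = 1.56e-04) and SKIL by -0.38 (0.0265), both still past the threshold, while GDF3 was not, as given above. Without LN-521 replicate 1, in turn, SKIL did not pass, and FOXH1, SMAD7, SMAD4, ACVR2A, ACVR1C and TGIF1 passed, as given above, while the calls over all genes rose from 446 to 1179.

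**Figure D4:**
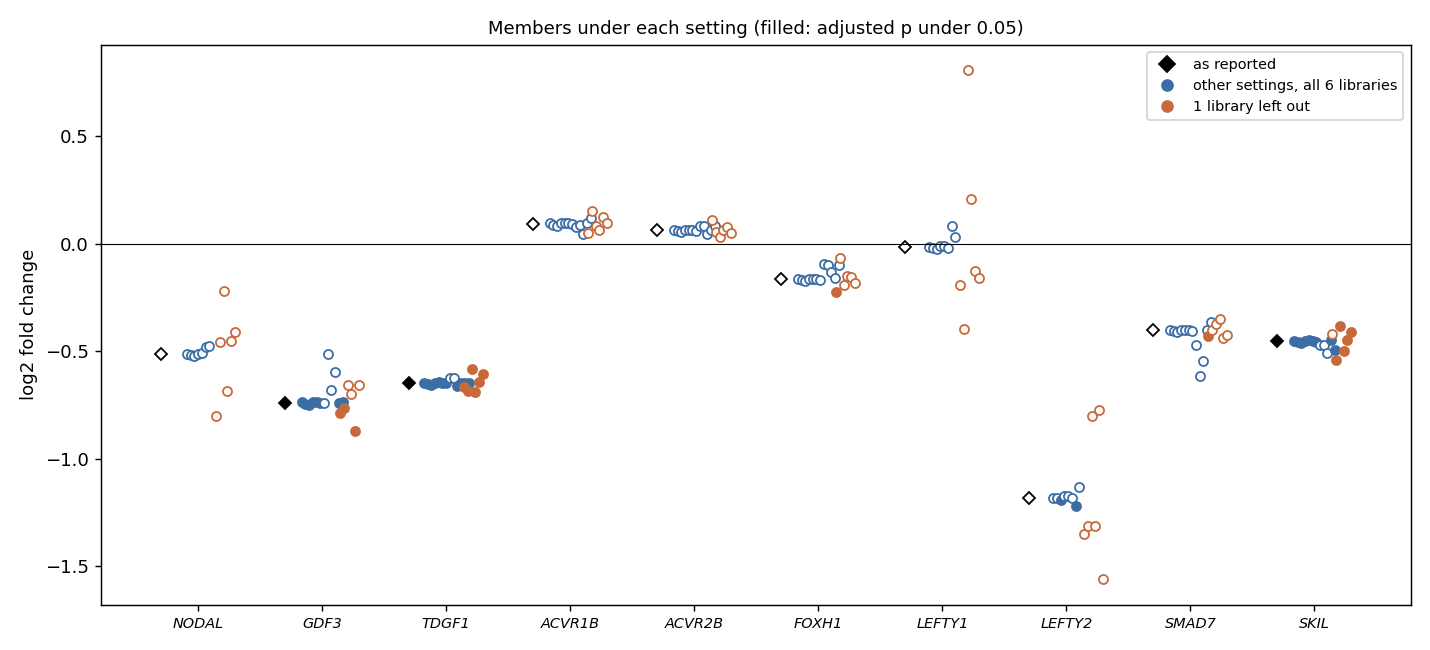
Log2 fold change (vertical axis) of the 10 genes as reported (black diamonds), under the other settings with all 6 libraries (blue) and with 1 library left out (orange). Filled points have an adjusted p under 0.05. TDGF1 and SKIL stay within narrow ranges below 0, while LEFTY1 falls on both sides of 0.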

How the data were processed

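Total RNA of 6 wells, all in 1 sequencing batch per the file headers, was read as 150-base pairs from strand-marking libraries, per the labels' protocols. The submitters' processing notes name cutadapt, STAR 2.5.2b, RSEM 1.2.31 and build hg38. The annotation release and whether strand was used in counting are not given in the sources used here. The authors deposited estimated counts per gene, of which 6.08% to 6.67% were not whole, and TPM values. Symbols came from a table holding 93.1% of the 60499 IDs. Positions and exon overlaps came from GENCODE 29, which held 93.8%.

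Rounded estimated counts were filtered (filterByExpr, minimum count 10), scaled by TMM and tested with edgeR 4.0.16 under R 4.3.3 (quasi-likelihood, robust). The fit used every library and no replicate term, and P-values were adjusted over 17608 genes (Benjamini-Hochberg, threshold 0.05). The SE is the absolute log2 fold change over the square root of F. CPM are on TMM-scaled library sizes. Alternatives were RLE or no scaling, other filters, leaving out 1551 small RNA and mitochondrial genes (the ribosomal RNA, 7SK and 7SL families), DESeq2 1.42.0, limma 3.58.1 on log2(TPM + 1) and log2(TPM + 0.1) where TPM reached 1 in 3 libraries, a GC correction, a replicate block, and each library left out. DESeq2 was first run on all genes with at least 1 count, then on the filtered genes to change only the test. That change followed a look at the values, so both are given, the first as an added alternative. The fit was tested on simulated data. It missed the first criterion, a high share of changed genes recovered at all levels, since few were recovered at low levels. The criterion was then changed to recovery above 10 CPM, bias and the null p-values, which it met. NODAL, GDF3, LEFTY1, LEFTY2 and SMAD7 lie below 10 CPM, where a gene that did not pass may still have changed.

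The members and lists were chosen with earlier results of these data known. Genes named are the members, other pathway genes past the threshold, SMAD2, SMAD3, SMAD4, INHBA, ACVR2A, CER1, FST and NANOG, the markers, and partners of a member that share bases with it. Untested targets, ACVR1C, TGIF1, PMEPA1, BAMBI, SKI and NEDD4L were named after their values were seen. Some items withheld for evaluation are not reported here.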

Additional observations from a re-analysis of the deposited data

How the results depend on the processing

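Of the 10 genes, 3 were called with RLE scaling, library size alone, a filter at 1 CPM, small RNA and mitochondrial genes left out, the GC correction, or DESeq2 on the filtered genes. DESeq2 on all genes with at least 1 count, added after the data were seen, called 2 of the 7 to which it gave an adjusted p (GDF3 lost, adjusted p = 0.0518), 2 other pathway genes (NANOG and TGIF1) and 507 genes in all. Without a filter 4 were called (LEFTY2 added). On TPM, with 7 tested, limma called 0 with log2(TPM + 1), 0 with log2(TPM + 0.1) and 1, TDGF1, on TPM rescaled without small RNA and mitochondrial genes. Leaving out a library gave 2 to 4. Over all genes the count moved from 446 (55.2% higher) to 718 without a filter (46.8%), 52 with log2(TPM + 1) (80.8%), 24 with log2(TPM + 0.1) (75.0%), 37 with rescaled TPM (67.6%) and 933 under GC correction. It was 194 to 1179 with a library left out: 1179 without LN-521 replicate 1, 201 without LN-521 replicate 3, and 290, 198 and 194 without LN-521+LN-221 replicates 1, 2 and 3. Other pathway genes called numbered 2 without a filter (TGIF1 added), 3 under GC correction (TGIF1 and ACVR2A added), 0 in each of the 3 TPM settings, and 1 to 5 with a library left out (5 without LN-521 replicate 1). Deviations of same-numbered wells correlated at 0.047, -0.022 and 0.0090, where wells of other numbers correlated at -0.0057 on average. Correlations over all genes cannot settle whether the replicate numbers pair the wells. With the replicate block 646 genes passed, with 4 of the 10 genes (LEFTY2 added) and 2 other pathway genes (TGIF1 added), and the log2 fold change of the LEFTY sum was -0.63 (edgeR adjusted p = 0.138). LEFTY1 changed sign with the replicate block (0.083), under GC correction (0.032), without LN-521 replicate 3 and without LN-521+LN-221 replicate 1, and ranged from -0.40 to 0.81 with a library left out. In the same fits SMAD2 ranged from -0.055 to 0.020, above 0 without LN-521 replicate 1, and the LEFTY sum from -0.92 to -0.15. The sum could not be fitted on TPM without rescaling, being below 1 TPM in too many libraries, and on rescaled TPM its log2 fold change was -0.31 (limma adjusted p = 0.718) against -0.67 as reported. The cause of the other shifts was not tested. NODAL, LEFTY1 and LEFTY2 had at most 63 counts per library, and the part of depth in their spread was not tested.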

Other observations

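Genes near the 3 members that fell were counted within 500000 bases on either side. Near GDF3, 15 genes were tested and 1 passed the threshold (edgeR), NANOG, which was lower on LN-521+LN-221. Near TDGF1, 10 were tested and 2 were lower, LRRC2 and ALS2CL, the latter named after its values were seen. LRRC2 shares exon bases with TDGF1, as given above, and reads in those bases cannot be told apart. Near SKIL, 10 were tested and 0 passed. Over all genes tested, 2.53% passed and 1.14% were lower, and with so few neighbours these counts describe the windows only.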
